A study of Homo sapiens with 12 samples.

Results

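The plasminogen activator system was followed through 4 genes, PLAU, PLAT, PLAUR and SERPINE2, which were taken by name from the 33514 gene symbols of the count tables. Their unique molecular identifiers (UMIs, 1 per captured transcript) were read in 23914 cells from 3 HNSCC (head and neck squamous cell carcinoma) lines profiled by scRNA-seq. SCC1, SCC6 and SCC25 are established cultured lines, with no stroma or blood vessels around the tumour cells. Each line was given PBS (untreated) or cetuximab at 100 nM every day for 5 days, and 2 replicate libraries were made per line and treatment, so that 12 libraries formed 6 groups. Cetuximab is a therapeutic antibody against EGFR, the receptor for epidermal growth factor. The comparisons ask how far the level of each gene differs between the lines without treatment, and how it differs after cetuximab in each line.

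Plasminogen activators cut plasminogen, a circulating protein, into plasmin, a protease that dissolves fibrin and digests extracellular matrix. The urokinase-type activator (uPA, encoded by PLAU) is secreted as a precursor and held at the cell surface by its receptor (uPAR, encoded by PLAUR), while the tissue-type activator (tPA, encoded by PLAT) acts mostly on fibrin. Serpins trap the activators, among them protease nexin-1 (encoded by SERPINE2), which also inhibits thrombin, and the system is best known in carcinoma for its part in invasion.

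In untreated cells the lines differed in the activator and in the inhibitor. PLAU was highest in SCC1, at 237 ± 45.4 UMIs per 1000000 UMIs of the library (CPM, mean ± SD, n = 2), against 49.2 ± 4.51 in SCC6 and 76.3 ± 14.6 in SCC25. SERPINE2 was lowest in SCC1 and highest in SCC25, from 0.222 ± 0.133 CPM (SCC1) over 18.4 ± 7.30 (SCC6) to 99.8 ± 32.6 (SCC25). After cetuximab none of the 4 genes passed the edgeR test in any line. With replicate number as a block, PLAUR fell and SERPINE2 rose in SCC6, in a fit that called 20.1% of all genes in that line. The summed level of 6 fibroblast markers was also higher in the treated SCC6 libraries (27.8 and 23.1 CPM) than in the untreated ones (0.947 and 2.98). Most of that sum was COL1A1, at a mean of 21.0 CPM in treated SCC6, where COL1A2 was at 0.0409. The part of these transcripts in the result was not tested.

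The libraries held 57057402 to 112170073 UMIs, with a median of 24078.5 to 54864 per cell. Libraries of different groups shared 1 to 13 cell barcodes and those of a group 3 to 10. The sources do not say that replicates were separate cultures, so that all errors and p-values measure the spread between libraries, which may be technical. All 7 squamous epithelial markers were found in every library, but SCC6 held little of the basal keratins, with KRT5 at 0.967 to 4.57 CPM against 370 to 2093 in the other lines. The summed CPM of 4 endothelial markers stayed at or below 0.670. Among 4 immune markers only CD68 was above 1 CPM in any library, and it was highest in SCC25, at 176 ± 17.4 CPM in PBS. The summed CPM of 6 fibroblast markers ran from 0.947 to 80.3 and was highest in SCC25, where LUM stood at 37.0 ± 27.1 in cetuximab.

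The region around the start of transcription is shown for the receptor gene and its ligand gene, because these moved most alike among the 4 members and because many genes downstream of EGFR are known to be controlled through AP-1, a factor made of FOS and JUN proteins. Sequences are those of RefSeq for GRCh38.p14 and run 5′ to 3′ on the strand of the gene, from 250 bases before the start to 50 after it. PLAUR lies on the minus strand, and its window is chr19:43670120-43670419. Capitals mark its only match to the AP-1 letters TGANTCA, which begins 186 bases before the start. PLAU lies on the plus strand and has 2 start windows, chr10:73910360-73910659 (first) and chr10:73910882-73911181 (second), both without a match and so without capitals.
PLAUR: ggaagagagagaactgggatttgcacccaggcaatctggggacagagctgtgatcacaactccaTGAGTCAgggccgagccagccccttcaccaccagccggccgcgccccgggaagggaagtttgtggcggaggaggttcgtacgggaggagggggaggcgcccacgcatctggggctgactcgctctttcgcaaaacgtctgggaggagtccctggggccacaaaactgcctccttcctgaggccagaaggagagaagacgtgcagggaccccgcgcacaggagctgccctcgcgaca
PLAU first window: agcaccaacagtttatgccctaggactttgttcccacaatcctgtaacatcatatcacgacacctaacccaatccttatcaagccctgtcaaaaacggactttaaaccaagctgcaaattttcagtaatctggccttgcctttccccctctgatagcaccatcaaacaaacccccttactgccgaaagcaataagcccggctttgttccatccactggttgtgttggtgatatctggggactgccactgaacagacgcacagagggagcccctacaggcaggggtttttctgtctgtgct
PLAU second window: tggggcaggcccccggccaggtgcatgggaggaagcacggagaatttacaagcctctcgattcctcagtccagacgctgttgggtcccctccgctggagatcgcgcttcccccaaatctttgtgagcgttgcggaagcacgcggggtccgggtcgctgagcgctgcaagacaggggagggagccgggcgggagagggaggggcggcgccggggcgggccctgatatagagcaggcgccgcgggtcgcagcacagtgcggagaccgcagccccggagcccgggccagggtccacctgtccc

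The AP-1 letters, searched on both strands, were found in 7.71% of 35116 RefSeq windows of the same length. The 2 SERPINE2 windows on the minus strand, chr2:224031429-224031728 and chr2:224038591-224038890, did not hold them. The letters CCGGAAG of ETS factors (10.3% of windows) and ACATTCC of TEAD factors (3.46%) were found in none of the 5 windows. No window of PLAT was searched. A match describes these letters only, and binding was not measured.

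PLAU, which encodes the urokinase activator, stood at 205 and 269 CPM in PBS replicates 1 and 2 of SCC1. The same libraries of SCC6 held 52.4 and 46.1 CPM, and those of SCC25 66.0 and 86.7. Both SCC1 libraries were thus above all untreated libraries of the other lines, while SCC6 and SCC25 lay close to each other. In edgeR's quasi-likelihood test on UMIs summed per library, PLAU was lower in SCC6 than in SCC1, with a log2 fold change of -1.94 ± 0.50 (SE) and FDR 0.0110. The difference of SCC25 from SCC1 was -1.45 ± 0.49 (edgeR FDR 0.0381). SCC25 and SCC6 did not differ beyond their spread, at 0.49 ± 0.48 (edgeR FDR 0.447). Both calls depended on single libraries: the FDR for SCC6 against SCC1 was 0.0505 to 0.0721 without PBS replicate 2 of SCC1 or either PBS replicate of SCC6, and for SCC25 against SCC1 it was 0.0567 to 0.175 without any 1 of the 4 libraries.

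PLAT, which encodes the tissue-type activator, was read at 8.65 and 12.6 CPM in untreated SCC1. Untreated SCC6 held 5.54 and 8.04 CPM, and untreated SCC25 8.47 and 26.9. Untreated SCC25 replicate 2 stood apart from its own replicate and from all other libraries. PLAT passed the test between no pair of untreated lines in the edgeR fit. The difference nearest to the threshold was that of SCC25 from SCC6, at 1.28 ± 0.51 with FDR 0.0674. In edgeR with no filter on low counts its FDR was 0.0122 and in DESeq2 it was 0.0307. Without PBS replicate 1 of SCC25, which leaves the high library alone in its group, PLAT was above SCC1 by 1.58 ± 0.39 (edgeR FDR 0.0142) and above SCC6 by 1.91 ± 0.39 (edgeR FDR 0.00577). Without replicate 2, SCC25 stood below SCC1, at -0.21 ± 0.42.

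PLAUR, the receptor that holds urokinase at the cell surface, was the most even of the 4 across untreated lines. Its level was 39.1 and 31.4 CPM in SCC1. SCC6 held 31.9 and 40.3 CPM, and SCC25 20.4 and 21.8. The ranges of SCC1 and SCC6 overlapped and both SCC25 libraries were lower. No pair of lines passed the test. SCC25 was -0.91 ± 0.44 from SCC6 on the log2 scale (edgeR FDR 0.122), which became FDR 0.0399 with no filter on low counts and 0.0497 in a fit to the 4 untreated libraries of these lines alone.

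SERPINE2, the inhibitor of urokinase, tissue-type activator and thrombin, had the widest range. For SERPINE2 in untreated SCC1 only 8 and 29 UMIs were counted, or 0.128 and 0.316 CPM. SCC6 stood at 13.2 and 23.5 CPM and SCC25 at 123 and 76.8. No 2 lines overlapped. By edgeR, SCC6 was above SCC1 by 6.61 ± 0.65 on the log2 scale (FDR 3.28e-05), SCC25 above SCC1 by 8.91 ± 0.70 (FDR 1.10e-05), and SCC25 above SCC6 by 2.30 ± 0.50 (FDR 0.00476). The mean of untreated SCC25 was 5.43 times that of SCC6. The 37 UMIs in SCC1 came from 5 of 1263 and 21 of 1666 cells, and no cell held more than 5.

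Among the 4 members, 2 were therefore called between untreated SCC6 and SCC1, beside 40.2% of all 17897 genes tested. For SCC25 against SCC1 it was 2 of 4 beside 40.8%, and for SCC25 against SCC6 1 of 4 beside 40.9%. These shares are near those of all genes, so that the members are described here by their size and order and not as a set that stood out.

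**Figure D1:**
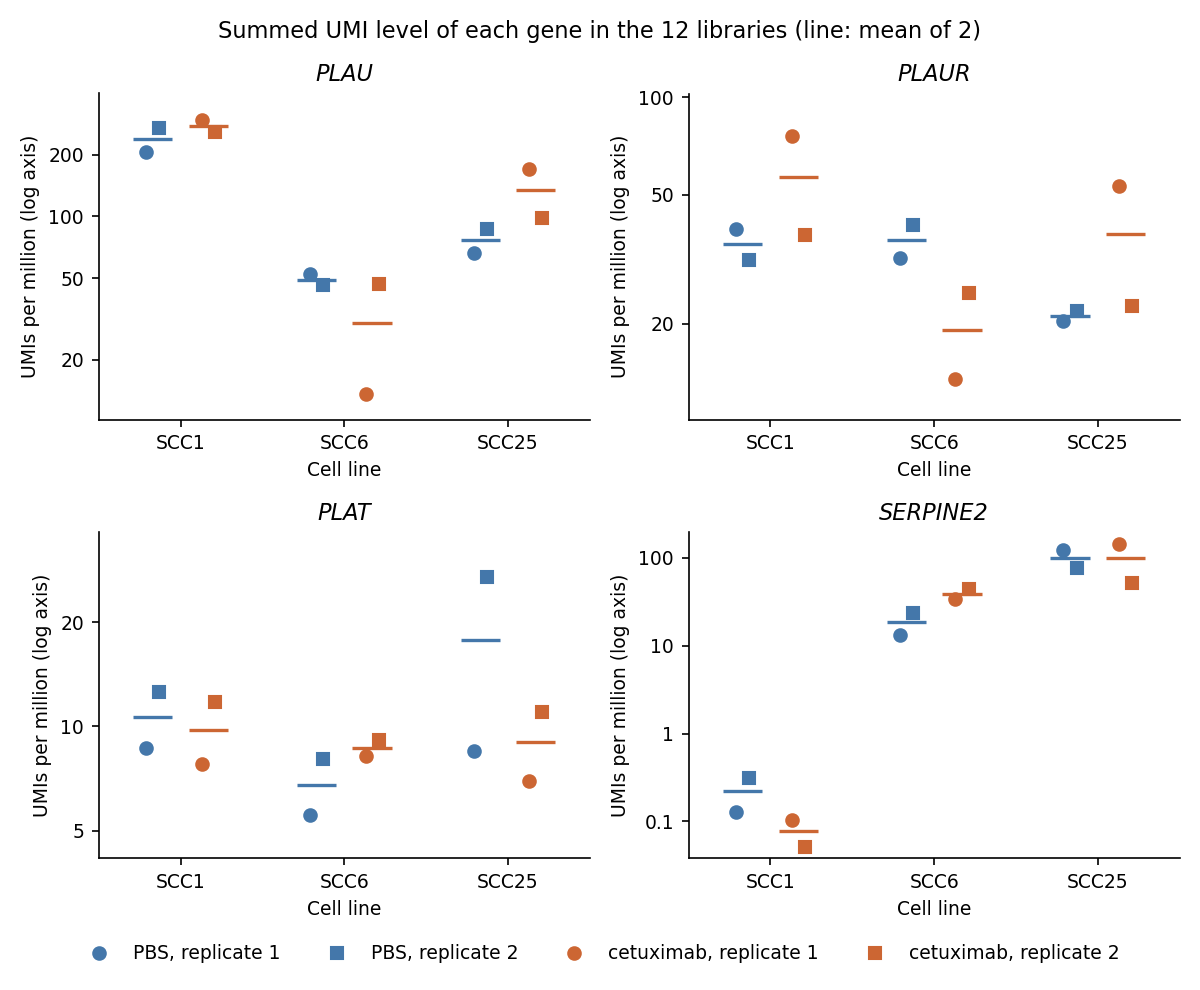
Level of each gene in the 12 libraries, in CPM on a log axis, by line on the x axis, with a point per library and a line at the mean of 2. PLAU is highest in SCC1 (205 to 294), SERPINE2 spans from 0.0508 in SCC1 to 144 in SCC25, and PLAT in untreated SCC25 replicate 2 (26.9) stands above the other 11 libraries.

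Under cetuximab, 0 of the 4 members passed the edgeR test in SCC1 (beside 0.0168% of all genes), 0 in SCC6 (beside 3.81%), 0 in SCC25 (beside 0%) and 0 across the lines (beside 3.67%). At an unadjusted p under 0.05 there was 1 member, PLAUR in SCC6. DESeq2 also called 0 of 4 in each line and across the lines, and at an unadjusted p under 0.05 it had PLAUR in SCC6, PLAT in SCC25 and SERPINE2 in SCC1. No gene was called for a difference of the cetuximab effect between lines by edgeR (0%), with 1318 genes at an unadjusted p under 0.05, whereas DESeq2 called 287, none of them a member. With replicate number as a block, 2 of 4 members passed in SCC6, beside 20.1% of all genes, and 0 in SCC1 (4.45%), SCC25 (0.978%), across lines (11.6%) and for the difference between lines (1.29%).

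PLAUR gave the clearest contrast between lines. In SCC6, replicates 1 and 2 were at 31.9 and 40.3 CPM in PBS and at 13.5 and 24.8 in cetuximab, without overlap. In SCC25 they were at 20.4 and 21.8 in PBS and at 53.1 and 22.6 in cetuximab, so that the difference lay almost wholly in replicate 1. SCC1 gave 39.1 and 31.4 CPM in PBS and 76.0 and 37.5 in cetuximab, where the groups overlapped. Each treated library of SCC1 and SCC25 thus stood above the PBS library of its number, and each of SCC6 below it. The log2 fold change in SCC6 was -1.14 ± 0.44 (edgeR FDR 0.183), and with the replicate block it was -1.20 ± 0.33 (edgeR FDR 0.0379). It was 0.64 ± 0.43 in SCC1 (edgeR FDR 0.784) and 0.81 ± 0.43 in SCC25 (edgeR FDR 0.921). The test of the difference between the 3 lines gave an edgeR FDR of 0.547 (unadjusted p = 0.0182 in edgeR), and 0.127 with the block.

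**Figure D2:**
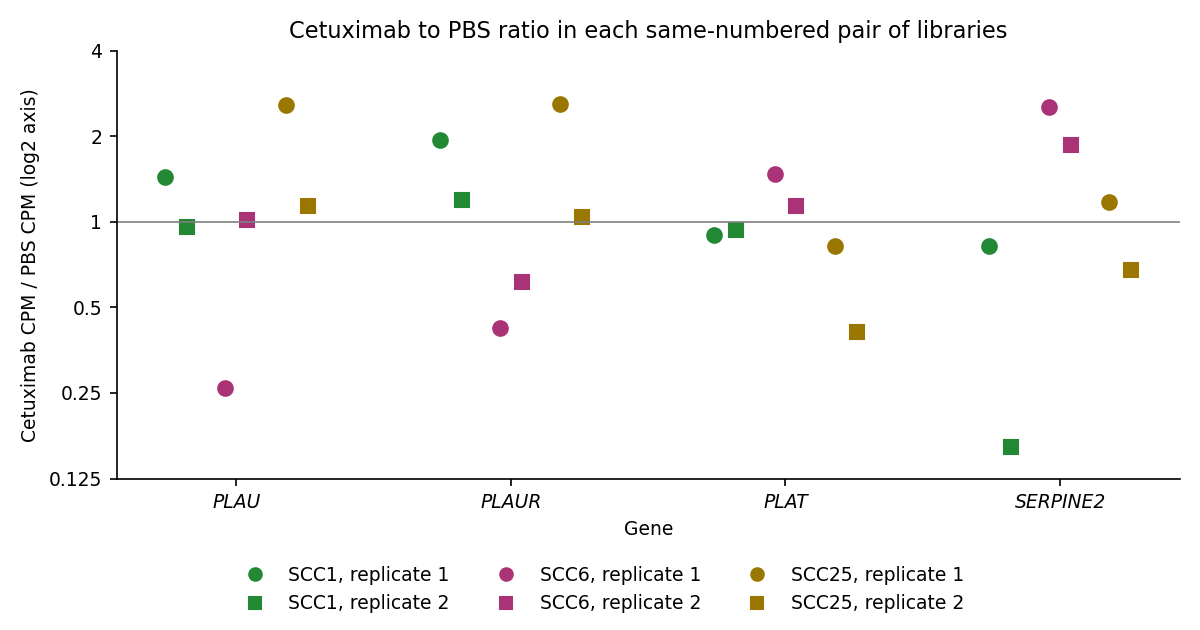
Ratio of the cetuximab level to the PBS level in each same-numbered pair of libraries, on a log2 axis, for each gene, with colour for the line and shape for the replicate. PLAUR lies below 1 in both SCC6 pairs (0.422 and 0.616) and above 1 in the other 4 pairs, and PLAU is far from 1 in the replicate 1 pairs of SCC6 (0.260) and SCC25 (2.59) but near 1 in their replicate 2 pairs (1.02 and 1.13).

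PLAU differed after treatment mainly in replicate 1. In SCC6, PLAU was at 52.4 and 46.1 CPM in PBS and at 13.6 and 46.8 in cetuximab. The low value came from cetuximab replicate 1, the library with the fewest UMIs per cell, 24078.5 against 50156 in replicate 2, and the part of that depth in the result was not tested. In SCC25, PLAU was at 66.0 and 86.7 in PBS and at 171 and 98.2 in cetuximab, where both treated libraries were above both untreated ones. In SCC1 it was at 205 and 269 in PBS and at 294 and 258 in cetuximab, with overlap. On the log2 scale the fitted difference of PLAU was -0.93 ± 0.49 in SCC6 (edgeR FDR 0.323), with 0.78 ± 0.48 in SCC25 (edgeR FDR 0.949) and 0.16 ± 0.48 in SCC1 (edgeR FDR 1). Without cetuximab replicate 2 of SCC6, the change in that line became -2.11 ± 0.42 with edgeR FDR 0.0422, a value that rests on the lone library at 13.6 CPM.

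PLAT was at 5.54 and 8.04 CPM in untreated SCC6 and at 8.18 and 9.12 in cetuximab. In SCC1 it was at 8.65 and 12.6 in PBS and at 7.76 and 11.8 in cetuximab. In SCC25, PLAT was at 8.47 and 26.9 in PBS and at 6.95 and 11.0 in cetuximab. Both treated SCC25 libraries were below the PBS library of their number, at 0.820 and 0.410 times its level, and the replicate 2 pair held the high untreated library. The log2 fold change was -1.04 ± 0.50 (edgeR FDR 0.892), and with the replicate block it was -0.83 ± 0.24 (edgeR FDR 0.155). Without PBS replicate 2, which leaves cetuximab replicate 2 unpaired, it was 0.12 ± 0.41 in the fit without the block. The fitted PLAT differences in SCC1 (-0.18 ± 0.50) and SCC6 (0.13 ± 0.50) were smaller than their errors.

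SERPINE2 in SCC6 was at 13.2 and 23.5 CPM in PBS and at 33.5 and 44.0 in cetuximab, without overlap. The treated libraries stood at 2.53 and 1.87 times the PBS library of their number. The log2 fold change was 0.86 ± 0.48 (edgeR FDR 0.357), and with the replicate block it was 0.89 ± 0.25 (edgeR FDR 0.0407). The summed level of the 6 fibroblast markers was 0.947 and 2.98 CPM in the same PBS libraries, with 3 and 0 markers at 0, and 27.8 and 23.1 in the cetuximab libraries, with 0 at 0. The part of those transcripts in the SERPINE2 result was not tested. In SCC25, SERPINE2 was at 123 and 76.8 in PBS and at 144 and 51.9 in cetuximab, so that the pairs went opposite ways and the fitted change was -0.05 ± 0.48. In SCC1, only 6 and 4 UMIs were left in cetuximab against 8 and 29 in PBS, a log2 fold change of -1.68 ± 0.82 (edgeR FDR 0.622).

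**Figure D3:**
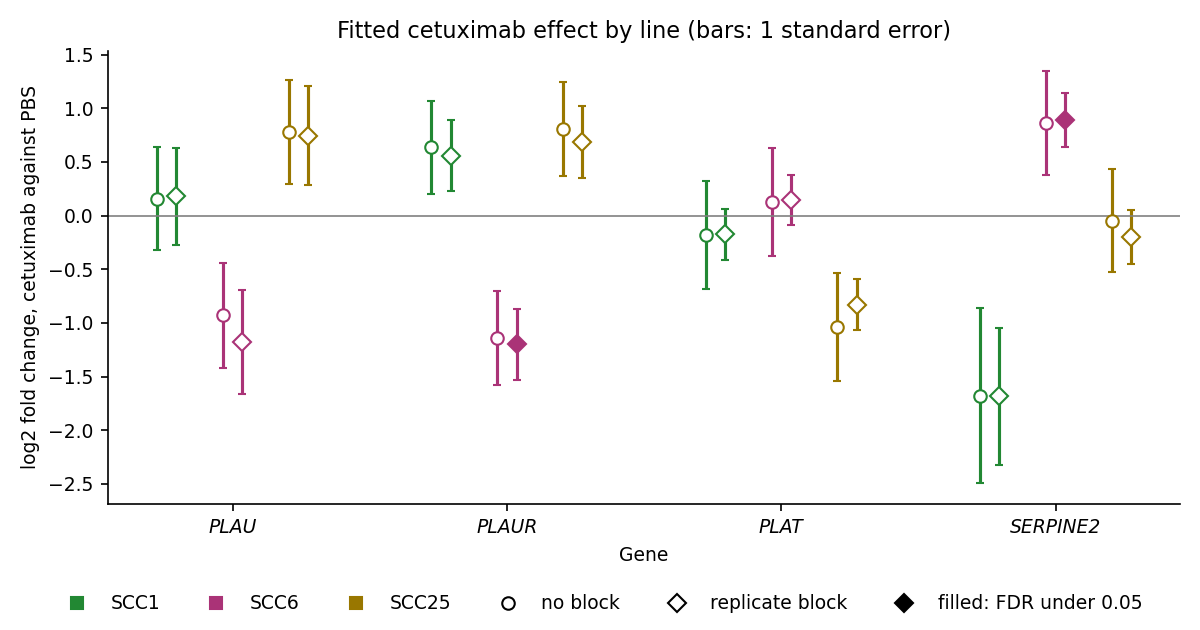
Fitted log2 fold change of cetuximab against PBS for each gene and line, with bars of 1 standard error, without (circles) and with (diamonds) the replicate block, and filled symbols for FDR under 0.05. Only PLAUR (-1.20) and SERPINE2 (0.89) in SCC6 with the block are filled.

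To see in how many cells each gene was found, every cell was thinned to 15000 UMIs, which left out 851 shallower cells. After thinning, a PLAU UMI was present in 80.7% to 87.5% of SCC1 cells, 14.7% to 38.3% of SCC6 cells and 46.0% to 75.7% of SCC25 cells. Urokinase transcripts were therefore found in most SCC1 cells rather than in a few cells with many UMIs. In SCC6 the PLAU share was 38.3% (95% Clopper-Pearson interval 36.5 to 40.2) and 36.3% (34.4 to 38.3) in PBS, and 14.7% (13.3 to 16.1) and 34.8% (32.5 to 37.2) in cetuximab. These intervals cover counting error only, and the 2 cetuximab libraries differed from each other by more than the 2 untreated ones did. In all cells without thinning, PLAU was found in 22.1% to 97.6% of the cells of a library.

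PLAUR was found in 32.7% and 42.2% of thinned untreated SCC6 cells and in 16.0% and 27.5% of treated ones. In SCC25 it was in 18.2% and 20.2% of untreated and 43.5% and 18.0% of treated cells, and in SCC1 in 33.6% and 32.1% of untreated and 51.7% and 35.2% of treated cells. The shares thus followed the summed levels, with SCC25 replicate 2 unmoved. The tissue-type activator PLAT was found in 23.0% (21.3 to 24.7) of the cells of untreated SCC25 replicate 2 and in 8.07% to 11.7% of those of the other 3 SCC25 libraries. The high PLAT level of that library was thus spread over more cells, and 9.23% of them held 2 or more UMIs against 2.24% in untreated replicate 1.

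The inhibitor SERPINE2 was in 16.6% and 24.7% of thinned untreated SCC6 cells and in 29.9% and 40.5% of treated ones. In SCC25 the share was 41.6% to 71.2%. In SCC1 it was 0 of 1215 cells in PBS replicate 1, which allows a share of up to 0.247%, and 0.0742% to 0.366% in the other 3 libraries. Among 6 endothelial and immune genes that these cells should lack, the highest share in any library was 0.417%, and in SCC1 it was 0.107%. SERPINE2 in 3 of the 4 SCC1 libraries lay at 0% to 0.213%, while in PBS replicate 2 of SCC1 its 0.366% stood beside 0 of 1640 cells, which allows up to 0.183%. These genes were taken to show stray counts only, which was not tested. CDH5, 1 of them, had 8 UMIs in untreated and 58 in treated SCC25. Free SERPINE2 RNA within SCC6 and SCC25 libraries was not measured.

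**Figure D4:**
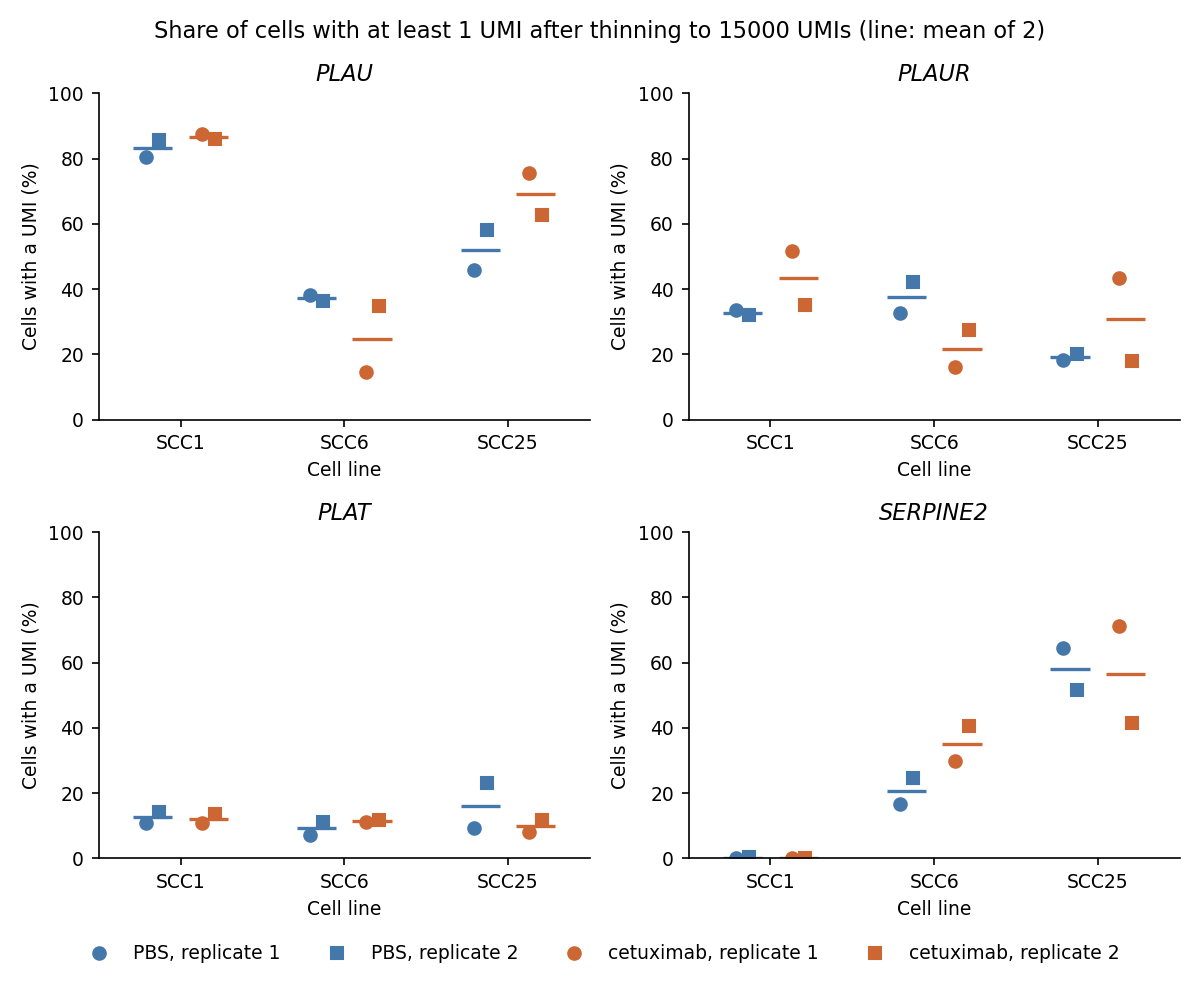
Percentage of cells with at least 1 UMI of each gene after thinning every cell to 15000 UMIs, by line, with a point per library and a line at the mean of 2. PLAU is found in over 80% of SCC1 cells, PLAT in 23.0% of untreated SCC25 replicate 2 and at most 14.2% elsewhere, and SERPINE2 in at most 0.366% of SCC1 cells.

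Urokinase and its receptor were found in the same cells slightly more often than their separate shares would give. Cells with both PLAU and PLAUR made up 28.2% to 47.8% of SCC1 libraries, 2.82% to 17.2% of SCC6 libraries and 10.5% to 34.6% of SCC25 libraries. The observed share was 1.02 to 1.25 times the product of both single shares in all 12 libraries. The Pearson r of their log2(UMIs + 1) over the cells of a library was 0.0574 to 0.245, a weak relation in sparse counts.

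Members were next compared between cells of 1 library that differed in another readout, as descriptions without a test, since cells of a library are not replicates. Cells were ranked by the summed UMIs of 16 genes listed as MAPK output below EGFR (among them CCND1, IER3, DUSP6 and EREG). The sum was not scaled per gene, so that abundant genes weigh most in it. In treated SCC25, CCND1 was at 1365 CPM, against 51.3 for DUSP6 and 1.68 for EREG. In treated SCC6, IER3 was at 470 and CCND1 at 307, against 13.5 for DUSP6 and 15.8 for EREG. PLAU was higher in the upper 25% than in the lower 25% of cells in 11 of 12 libraries, with a median ratio of 1.5 (range 0.918 to 2.53). PLAUR was higher in 10 of 12, with a median ratio of 1.15. PLAT was higher in 9 of 12 (median ratio 1.27), and SERPINE2 in 5 of the 8 libraries with enough UMIs (median ratio 1.11). These classes are ranges of a score and not cell types, and 3.28% to 12.1% of cells had a score equal to that at a border. For PLAUR in treated SCC6 the ratio was 1.06 and 0.984. Between treatments of SCC6, 6 of the 16 MAPK genes fell in the edgeR test (1.3% of all genes did), with a list median of -1.85 on the log2 scale beside 0 for all genes. The abundant genes of the score did not fall in CPM there. IER3 was at 1.26 and 1.52 times and CCND1 at 1.13 and 1.16 times the PBS library of the same number. A link between these genes and the level of PLAUR was not tested. In the other lines 0 of 16 passed (SCC1 and SCC25), with medians of -0.20 and -0.05 and 2 genes in SCC1 and 1 gene in SCC25 at an unadjusted edgeR p under 0.05, and DESeq2 called 0 in both lines. The replicate block gave 8 of 16 lower in SCC6 (beside 10.1% of all genes), 1 of 16 lower in SCC1 (1.99%) and 0 of 16 in SCC25 (0.207%).

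SERPINE2 was higher in cells with a UMI of VIM, which encodes the mesenchymal filament vimentin, in 7 of the 8 libraries of SCC6 and SCC25, with a median ratio of 1.52. The share of SCC6 cells with VIM was 17.6% and 35.1% in PBS and 92.9% and 92.1% in cetuximab. Among SCC6 cells without VIM, SERPINE2 was at 13.0 and 18.6 CPM in PBS and at 20.8 and 31.5 in cetuximab. Among those with VIM it was at 19.5 and 29.6 in PBS and at 32.7 and 45.1 in cetuximab. In CPM, treated libraries were thus above untreated ones within both classes after thinning. These CPM leave out the TMM factors of the edgeR fit. The factors were 0.835 and 0.894 in the SCC6 PBS libraries and 1.02 and 1.00 in the cetuximab ones. Divided by them, treated and untreated values overlap in both classes. The treated replicate 1 value without VIM rests on 57 UMIs. In all cells without thinning, SERPINE2 in cells without VIM was at 12.2 and 17.9 CPM in PBS and at 16.2 and 29.3 in cetuximab, with overlap. That class then held only 137 and 24 treated cells, against 183 and 129 after thinning. For PLAUR after thinning, SCC6 cells with VIM were at 33.8 and 38.5 CPM in PBS and at 12.8 and 23.6 in cetuximab. PLAUR in cells without VIM was at 30.5 and 41.3 in PBS and at 11.7 and 30.5 in cetuximab. Without thinning, the latter class was at 30.7 and 40.9 in PBS and at 13.7 and 39.4 in cetuximab.

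PLAT in SCC25 was lower in cells with VIM in all 4 libraries, at 0.420 to 0.623 times the level of cells without it. In SCC6, PLAT was at 0.584 and 1.34 times that level in PBS and at 1.64 and 1.57 times in cetuximab, where only 15 and 12 UMIs came from cells without VIM. In SCC1 too few cells held VIM for a ratio except in PBS replicate 2, at 0.481 with 4 UMIs from cells with VIM. PLAT was also lower in cells with a UMI of the proliferation genes MKI67 or TOP2A in 11 of 12 libraries, with a median ratio of 0.804. PLAUR was lower in such cells in 10 of 12 libraries after thinning (median ratio 0.939), but in all cells without thinning it was lower in 6 and higher in 6, with a median ratio of 1.01. PLAU in the same comparison was higher in 8 of 12 libraries after thinning, with a median ratio of 1.07, and the lines differed. Its ratio was 1.12 to 1.29 in SCC1 and 0.985 to 1.29 in SCC6. In SCC25 it was 0.870 and 0.664 in PBS and 1.02 and 0.953 in cetuximab.

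**Figure D5:**
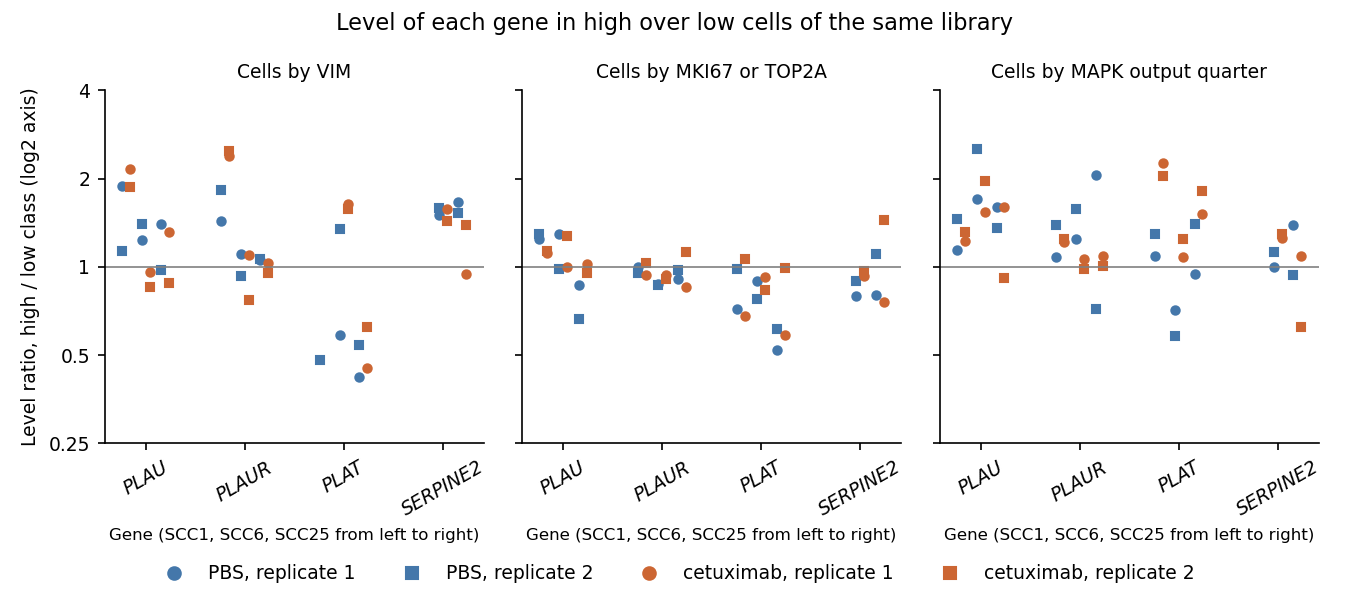
Level of each gene in the high over the low class of cells of the same library, on a log2 axis, with cells split by VIM, by MKI67 or TOP2A and by the upper and lower 25% of the summed MAPK genes, with a point per library where more than 3 UMIs were counted in each class. PLAU lies above 1 in 11 of 12 libraries in the MAPK panel, and PLAT lies at 0.420 to 0.623 in the 4 SCC25 libraries of the VIM panel.

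The other genes of the system were read from a list of 39, of which 33 passed the low-count filter. Plasminogen itself (PLG) had at most 3 UMIs in any library and 0 in 10 of 12, so that its transcripts were at or below the detection limit in these cells. Under cetuximab, 0 of 33 were called in SCC1, 2 higher in SCC6 (beside 2.51% of all genes) and 0 in SCC25. At an unadjusted edgeR p under 0.05 there were 3 genes in SCC1 and 8 in SCC25, and DESeq2 called 1 in each (VTN in SCC1, F2RL1 in SCC25) and 7 in SCC6. Across lines 5 were higher (2.53%) and 1 lower (1.13%). The list's median change was 0.31 in SCC1, 0.15 in SCC6, 0.38 in SCC25 and 0.13 across lines on the log2 scale, beside medians between -0.01 and 0.01 for all genes. With the replicate block, 4 were higher and 1 lower in SCC1, beside 2.46% and 1.99% of all genes. In SCC6 it was 8 higher and 5 lower, beside 9.94% and 10.1%. In SCC25 it was 2 higher and 0 lower, beside 0.771% and 0.207%, and across lines 8 higher and 1 lower, beside 6.03% and 5.55%.

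MRC2, an endocytic receptor that associates with the urokinase receptor, rose by 1.64 ± 0.32 in SCC6 (edgeR FDR 0.0241), from 0.339 and 0.516 CPM to 1.80 and 1.31. The FDR was 0.174 without cetuximab replicate 1 and 0.209 without PBS replicate 1. Of the receptor partners that bind vitronectin or uPAR, the integrin subunit genes ITGAV and ITGB5 rose across lines by 1.15 ± 0.25 (edgeR FDR 0.0295) and 0.63 ± 0.13 (edgeR FDR 0.0239). ITGB3 rose as well, by 1.95 ± 0.46 (edgeR FDR 0.0408), but was at 0.625 CPM or less throughout. VTN, which encodes vitronectin, a matrix ligand of uPAR, rose by 2.51 ± 0.38 (edgeR FDR 0.00903) from at most 0.107 CPM in PBS to at most 0.634 in cetuximab. F12, coagulation factor XII, fell by 0.59 on the log2 scale with an SE of 0.12 (edgeR FDR 0.0252).

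Between untreated lines, 9 of 33 were higher and 13 lower in SCC6 than in SCC1, beside 21.5% and 18.6% of all genes. For SCC25 against SCC1 it was 7 higher and 8 lower, beside 23.4% and 17.3%, and for SCC25 against SCC6 8 higher and 6 lower, beside 22.2% and 18.7%. Among the inhibitors, SERPINB2, a serpin that inhibits urokinase, had the order opposite to that of SERPINE2. SERPINB2 was at 82.9 and 68.0 CPM in untreated SCC1, against 3.28 and 3.13 CPM for SCC6 and 0.198 and 0.0713 for SCC25. SCC25 was lower than SCC1 by edgeR, at -8.99 ± 1.04 (FDR 0.000112). Among proteases known to activate the urokinase precursor, CTSB (cathepsin B) was lower in SCC6 than in SCC1, at -2.19 ± 0.32 (edgeR FDR 0.000446), and ST14 (matriptase) was lower in the same comparison, at -1.23 ± 0.23 (edgeR FDR 0.00208). F12, listed in the same role, was also called lower. CTSL of that role was called higher, at 47.4 and 74.0 CPM in untreated SCC6 against 15.5 and 20.2 in untreated SCC1.

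With the block, genes of plasminogen binding and of clearance passed as well. S100A10, a subunit of the annexin A2 complex that binds plasminogen at the cell surface, rose by 0.59 ± 0.09 in SCC1 (edgeR FDR 0.0161) and by 0.33 ± 0.09 in SCC6 (edgeR FDR 0.0413). LRP1, the receptor that clears activators bound to their inhibitors, rose by 1.25 ± 0.14 in SCC6 (edgeR FDR 0.00167), from 6.97 and 4.91 CPM to 22.6 and 11.7. Of the remaining inhibitors, SERPINB2 fell in SCC6 by 2.21 on the log2 scale with an SE of 0.54 (edgeR FDR 0.025). F2RL1, which encodes the protease-activated receptor PAR2, rose in SCC25 by 1.30 ± 0.16 (edgeR FDR 0.0161), from 5.63 and 5.58 CPM to 15.7 and 12.8. None of these 5 calls was made by edgeR without the block.

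On the thrombin side of the list, F3 and THBD were lower in untreated SCC6 than in either other line. F3, the tissue factor that starts coagulation, was at 237 and 96.0 CPM in untreated SCC6 against 775 and 572 in SCC1, a log2 difference of -1.65 ± 0.43 (edgeR FDR 0.0112). THBD (thrombomodulin, which turns thrombin towards protein C) was at 2.74 and 1.19 CPM in untreated SCC6 against 46.6 and 55.4 in SCC1, a log2 difference of -4.35 ± 0.53 (edgeR FDR 0.000141). The thrombin receptor gene F2R was higher in SCC6 than in SCC1 by 1.70 ± 0.30 (edgeR FDR 0.00143). TFPI2, an inhibitor of plasmin and tissue factor, had 0 UMIs in all 4 SCC1 libraries and stood at 27.9 and 21.2 CPM in untreated SCC6 and at 16.6 and 11.0 in untreated SCC25.

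Finally, the genes whose log2 level ran most like that of a member over the 12 libraries were listed among the 7583 genes with a mean of at least 10 CPM. The libraries fall into 3 lines and share them, so that these Pearson r are descriptions of mostly line differences. For PLAU the nearest were PIGH (r = 0.972), DNAJB11 (0.971) and PNO1 (0.965). For PLAUR they were IKBKE (0.897), ERO1A (0.872) and NFKB2 (0.847), for PLAT CCDC51 (0.870), PTGR1 (0.862) and RNPEP (0.843), and for SERPINE2 FAM20C (0.992), CAVIN3 (0.986) and SFRP1 (0.986). Among the members themselves, PLAU and PLAUR moved most alike over the 6 same-numbered pairs (r = 0.888 of their log2 changes), followed by PLAT and SERPINE2 (0.823). Over the same 6 pairs the nearest gene was HK1 for PLAU (r = 0.996), RABL3 for PLAUR (0.996), GM2A for PLAT (0.987) and CALU for SERPINE2 (0.990).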

How the data were processed

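The authors prepared 10x Genomics Chromium 3′ v2 libraries of cetuximab-treated and untreated cells and filtered and aligned the reads with Cell Ranger. The submitters' processing notes name the build GRCh38, and the version of the aligner is not given in the sources used here. The deposited tables hold raw UMI counts, whole numbers per gene and cell, 1 table per line with a sample label for each cell. Groups and replicate numbers come from the sample labels, and 0 columns of cells were left unmapped.

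All 23914 cells were used without a filter or doublet caller. The 24 symbols on more than 1 line were summed. Counts were summed per library. The test was glmQLFTest of edgeR 4.0.16 (R 4.3.3) with TMM factors, filterByExpr (17897 genes, among them all 4 members) and 1 mean for each of 6 groups. A fit of line plus treatment gave the effect across lines. P-values are two-sided and adjusted by Benjamini-Hochberg over all genes tested (FDR, threshold 0.05). This replaced the study's test on cells, since cells are not replicates. The SE is the log2 fold change divided by the square root of its F. The test without the replicate block was run on simulated counts that held no replicate effect. That run does not bear on the fit with the block. Same-numbered libraries of a line deviated together (in log2 CPM over genes, r was 0.377 for SCC1, 0.349 for SCC6 and 0.598 for SCC25). With so few replicates per group, r of other-numbered libraries was the same value with the opposite sign (-0.377, -0.349 and -0.598). In every line 1 of the numberings thus had to give a positive r, so these values cannot show that libraries were paired. The labels give numbers only. A fit with replicate number within line as a block was set beside each result it changed, and it takes this pairing as given.

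CPM are per 1000000 UMIs of the library. Thinning drew 15000 UMIs per cell without replacement, and 95% Clopper-Pearson intervals and limits of 3 counts cover counting error only. Likeness is Pearson r of log2(CPM + 1). UMI counts near the 3′ end carry no length term, and levels of different genes are not compared. Alternatives were DESeq2 1.42.0, its size factors, no low-count filter, fits to the groups compared alone, cells left out by UMIs or mitochondrial share, and each replicate left out. Members, gene lists, markers and the rule for named genes were chosen with earlier results of these data known. From the lists, genes past the threshold are named with values where a comparison turns on them. Of the pathway list, 1 gene is counted in its totals and is not reported here.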

Additional observations from a re-analysis of the deposited data

Results flagged for a closer look

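In 3 of the 4 members both pairs of 1 line moved one way and both pairs of another line the other way. The share of all genes with such a pattern was not counted, so that this number does not set the members apart. For PLAUR the cetuximab effect on the log2 scale differed by -1.77 ± 0.62 between SCC6 and SCC1 (SCC6 minus SCC1, edgeR FDR 0.467, and 0.111 with the replicate block), and that in SCC25 was above that in SCC6 by 1.94 ± 0.62 (edgeR FDR 0.418, and 0.11 with the block). For PLAT the effect in SCC6 was above that in SCC1 by 0.31 ± 0.71 (edgeR FDR 0.993), and the effect in SCC25 differed from that in SCC6 by -1.17 ± 0.71 (edgeR FDR 0.722). For SERPINE2 the effect in SCC6 was above that in SCC1 by 2.54 ± 0.95 (edgeR FDR 0.513, and 0.11 with the block), with 4 to 29 UMIs per library in SCC1. None of these differences passed the test.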

How the results depend on the processing

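With the replicate block, 2 of 4 members (PLAUR and SERPINE2) were called in SCC6 in place of 0, and the block changed no other call of a member under cetuximab. These calls take same-numbered libraries as pairs, which neither the labels nor the counts can show. Between untreated SCC25 and SCC6, the number of members called was 3 with no low-count filter, 2 with DESeq2, and 2 in a fit to the groups compared alone, in place of 1. Leaving out 1 library gave 0 to 1 members called in SCC6 under cetuximab (1 without cetuximab replicate 2), 1 to 2 between SCC6 and SCC1, 1 to 2 between SCC25 and SCC1, and 1 to 2 between SCC25 and SCC6. Calls of SERPINE2 between lines held in all settings. Directions that turned belonged to changes that passed no test: across lines, the log2 value of PLAU was -0.0476 with the replicate block and that of SERPINE2 -0.0934 with DESeq2. Leaving out 1 library, the log2 values under cetuximab ran from -0.0924 to 0.448 for PLAU in SCC1, from -0.54 to 0.20 for PLAT in SCC1, from -0.0786 to 0.361 for PLAT in SCC6, from -1.67 to 0.116 for PLAT in SCC25 and from -0.937 to 0.502 for SERPINE2 in SCC25. Across lines they ran from -0.187 to 0.284 for PLAU, from -0.482 to 0.00602 for PLAT, from -0.154 to 0.395 for PLAUR and from -0.154 to 0.303 for SERPINE2. Between untreated lines PLAT ran from -0.64 to 0.0488 for SCC6 against SCC1 and from -0.21 to 1.58 for SCC25 against SCC1. The cause of these differences was not tested. Leaving a group with 1 library assumes that it varies like the others. Of 179 log2 values under the other settings, 171 kept direction and side of the threshold. Counts of 4 to 29 UMIs limit SERPINE2 in SCC1.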
